A study of Mus musculus with 9 samples.

Results

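MHC class II antigen presentation genes were examined in mouse liver. The members are H2-Aa, H2-Ab1, H2-Eb1, H2-DMa, H2-DMb1, Cd74, and Ciita, chosen by gene symbol with a value above 0 in at least 1 liver. All 7 were above 0 in all 9 livers, among 23183 gene symbols in the tables and 16889 above 0 in at least 1 liver. The livers came from 9 male C57BL/6J mice at postnatal day 100, 3 in each of 3 groups, with 1 sequencing library per mouse. The ND group (mice 6, 7, and 9) ate a normal diet with 14% fat for 10 weeks. The HFD group (mice 1, 2, and 3) ate a diet with 60% fat for 10 weeks. The PRF 50 group (mice 3, 9, and 10) ate the same 60% fat diet and received by mouth, daily for the last 5 weeks, 50 mg/kg of PRF, a fraction of Citrus sunki leaves rich in polymethoxyflavones, a class of citrus flavonoids. Equal mouse numbers in different groups do not mark pairs.

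MHC class II molecules carry fragments of proteins taken up from outside the cell to the cell surface, where helper T cells read them. They are made mainly by dendritic cells, macrophages, and B cells, and in the liver by Kupffer cells, the resident macrophages of the sinusoids, among others. The chains pair in the endoplasmic reticulum with the invariant chain, which proteases then trim in endosomes before H2-DM exchanges its last fragment for a peptide. In whole liver, a change in the number of cells of a type and a change in RNA per cell cannot be told apart.

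Values are on the log2(FPKM + 1) scale of the deposited tables, where FPKM is fragments scaled to transcript length and library size. HFD mouse 2 had 1 outlying value, 22.4 for the gene symbol Rnu6, while the highest value of any other liver was 14.6. The part of this in the other values of that liver was not tested. The pseudocount of 1 was inferred, and fold changes taken from it come out too small where a gene is low. Of the 10 hepatocyte genes examined to check the labelled tissue, 9 were above 0, led by Apoa1 with a mean of 9561 FPKM. The remaining one, Alb, was listed at 0 in all 9 livers, so that a 0 in the tables need not mean absence.

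H2-Aa and H2-Ab1 encode the alpha and beta chains of I-A, the class II molecule at the surface of C57BL/6 cells. H2-Eb1 encodes the beta chain of I-E, which C57BL/6 mice are known not to display because their gene for the alpha chain is defective. In GENCODE M21 on GRCm38, the 5 H2 members lie on chromosome 17 within 197 kb, from H2-DMa to H2-Eb1, and Cd74 and Ciita lie on other chromosomes. The position of H2-Aa is chr17:34282744-34287823 on the minus strand. On the plus strand, H2-Ab1 spans chr17:34257689-34269419 and H2-Eb1 spans chr17:34305867-34316674.

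Because the members varied together between livers, as described further on, the promoters of the class II chains are shown. Class II promoters are known for an X box, bound by the RFX complex, and a Y box, bound by NF-Y, on which the coactivator CIITA acts. The RefSeq promoter table (GRCm38.p6) held 4 of the 7 members, H2-Aa, H2-Eb1, H2-DMa, and H2-DMb1. The 120 bases before the start site are given for 3 of them, 5′ to 3′ on the strand of the gene, with the letters CTNGNAACT (within the X box) and TGATTGG (within the Y box) in capitals. They cover chr17:34287824-34287943 on the minus strand for H2-Aa, chr17:34305747-34305866 on the plus strand for H2-Eb1, and chr17:34153071-34153190 on the plus strand for H2-DMb1. The start sites are those of RefSeq. In GENCODE M21, H2-DMb1 begins at chr17:34153072, so that nearly all the bases given for it lie inside the gene as annotated there. H2-DMa begins at chr17:34119541 in GENCODE M21, also before its RefSeq start sites.
H2-Aa: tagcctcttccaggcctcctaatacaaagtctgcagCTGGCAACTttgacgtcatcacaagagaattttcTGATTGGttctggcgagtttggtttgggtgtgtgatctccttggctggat
H2-Eb1: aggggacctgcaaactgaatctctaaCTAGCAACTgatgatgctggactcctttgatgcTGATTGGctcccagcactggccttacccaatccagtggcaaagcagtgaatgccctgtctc
H2-DMb1: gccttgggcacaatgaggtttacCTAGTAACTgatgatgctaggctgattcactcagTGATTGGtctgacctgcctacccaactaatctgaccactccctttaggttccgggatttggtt
In these promoters, 24 or 25 bases separated the end of the first set of letters from the start of the second. Neither set was found in the 250 bases before either of the 2 listed start sites of H2-DMa. Searched on both strands in the 250 bases before the start, CTNGNAACT was present in 3.47% and TGATTGG in 7.23% of 32851 promoters, and both in 0.265%. The letters were chosen after these promoter sequences had been read, so that their presence here describes the sequences and tests nothing.

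H2-Aa measured 4.52, 4.94, and 4.90 in ND mice 6, 7, and 9, then 4.55, 4.62, and 4.73 in HFD mice 1, 2, and 3, and 6.10, 4.39, and 5.08 in PRF 50 mice 3, 9, and 10. H2-Ab1 measured 3.94, 4.69, and 4.63 in the ND mice, 4.17, 3.90, and 4.14 in the HFD mice, and 5.74, 4.03, and 4.84 in the PRF 50 mice, in the same order. H2-Eb1 measured 3.26, 4.03, and 3.86 in the ND mice, 3.72, 3.30, and 3.66 in the HFD mice, and 5.01, 3.16, and 4.01 in the PRF 50 mice. PRF 50 mouse 3 was the highest of the 9 livers for all 3 chains, PRF 50 mouse 9 was the lowest for H2-Aa and H2-Eb1, and the 3 groups overlapped for each chain. The HFD livers lay close together for H2-Aa, with an SD of 0.09 (n = 3), while the PRF 50 livers had an SD of 0.86 (n = 3).

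Cd74 encodes the invariant chain, which fills the peptide groove of new class II molecules and guides them to endosomes. It measured 4.94, 5.97, and 5.84 in ND mice 6, 7, and 9, then 5.49, 5.66, and 5.53 in HFD mice 1, 2, and 3, and 7.16, 5.93, and 6.14 in PRF 50 mice 3, 9, and 10. All 3 PRF 50 livers were above all 3 HFD livers, while ND mouse 7 was above PRF 50 mouse 9. Cd74 had the highest level of the members, with a mean of 62.0 FPKM over the 9 livers, above 93.5% of the genes with a value above 0. It made up between 38.2% and 56.0% of the summed FPKM of the members in each liver, the lowest share in ND mouse 6 and the highest in PRF 50 mouse 9.

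H2-DMa and H2-DMb1 encode chains of H2-DM, the peptide exchange factor of the endosome. H2-DMa measured 1.26, 1.62, and 1.93 in ND mice 6, 7, and 9, then 1.31, 1.46, and 1.23 in HFD mice 1, 2, and 3, and 2.62, 1.58, and 1.89 in PRF 50 mice 3, 9, and 10. H2-DMb1 measured 1.49, 1.65, and 1.75 in the ND mice, 1.51, 1.44, and 1.50 in the HFD mice, and 2.67, 1.47, and 2.04 in the PRF 50 mice. PRF 50 mouse 3 was again the highest liver for both. For H2-DMa the PRF 50 livers lay above the HFD livers without overlap, and for H2-DMb1 PRF 50 mouse 9 fell within the HFD range. Levels were low, with means of 2.30 FPKM for H2-DMa and 2.44 FPKM for H2-DMb1 over the 9 livers. Of the windows of 100 bases in H2-DMb1 transcripts, 11.3% also occur in transcripts of the near copy H2-DMb2, and 6.58% of those of H2-DMa occur in Brd2 transcripts on either strand, so that these values are uncertain where the counting could split reads. No window of H2-Aa, H2-Ab1, H2-Eb1, or Cd74 was shared with another gene.

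Ciita encodes the coactivator that class II promoters need. It measured 0.13, 0.26, and 0.31 in ND mice 6, 7, and 9, then 0.28, 0.08, and 0.19 in HFD mice 1, 2, and 3, and 0.76, 0.41, and 0.40 in PRF 50 mice 3, 9, and 10. All 3 PRF 50 livers were above all 6 other livers. The mean over the 9 livers was 0.254 FPKM, under the minimum of 1 FPKM set for the tests across genes. How many fragments these low values rest on is unknown. The difference of the means was 0.34 from the HFD group and 0.29 from the ND group, and without PRF 50 mouse 3 it was 0.22 and 0.17. In a two-sided exact permutation test, each difference had p = 0.1, the smallest value that 3 mice against 3 allow.

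**Figure D1:**
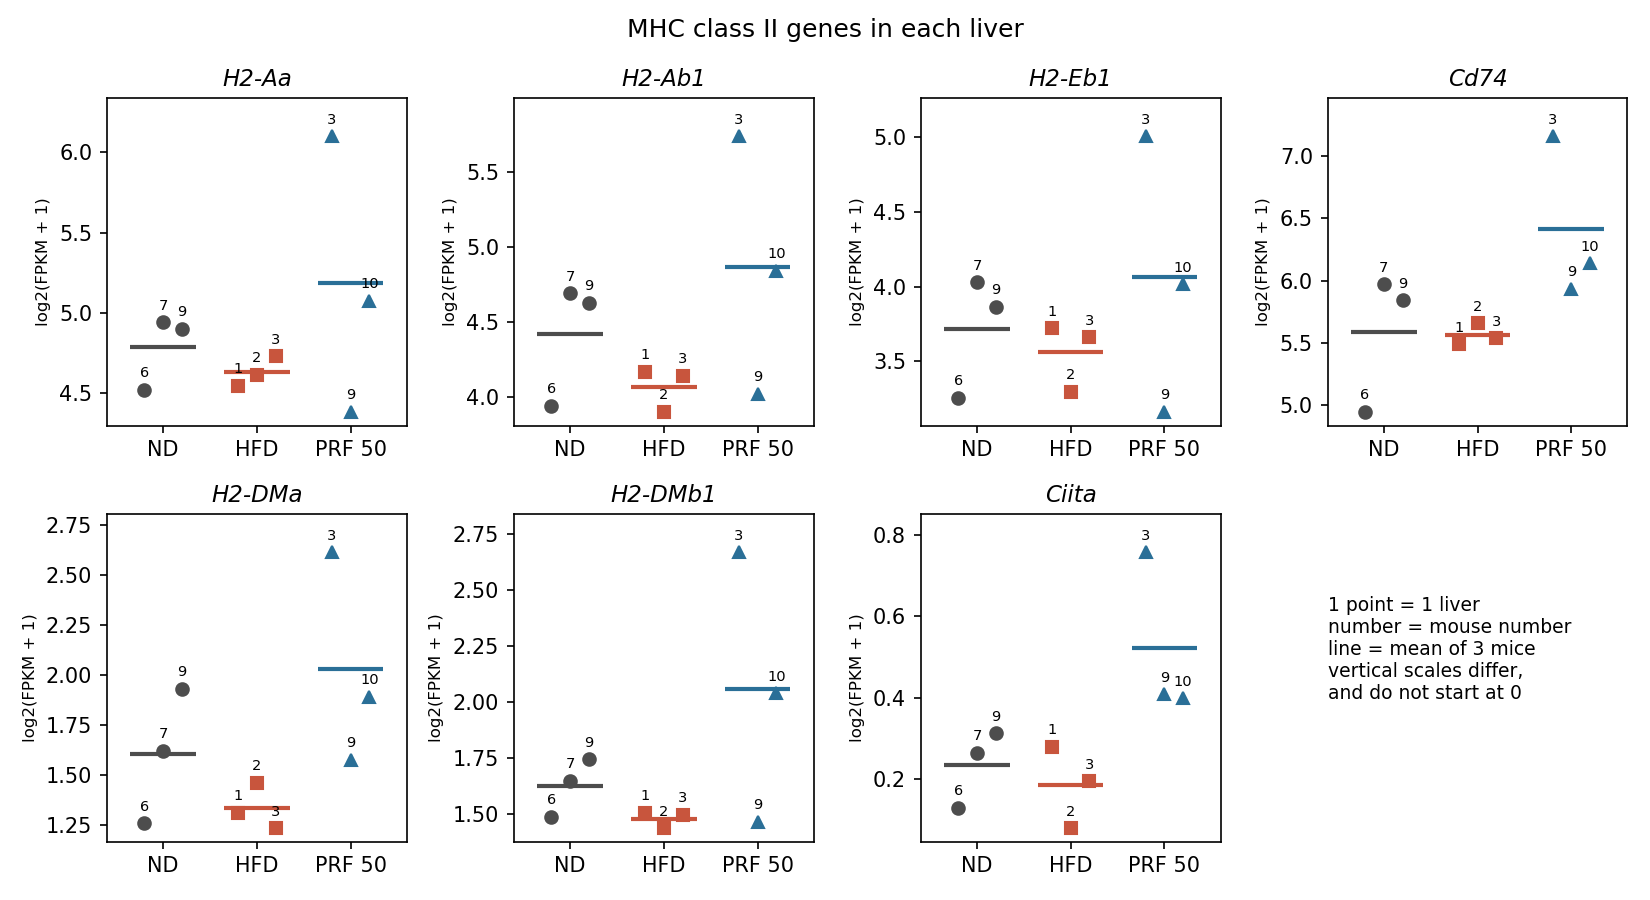
Level of each MHC class II gene on the log2(FPKM + 1) scale (vertical axis) in the ND, HFD, and PRF 50 groups (horizontal axis). Each point is 1 liver with its mouse number and each line is the mean of 3 mice, and PRF 50 mouse 3 is the highest point in all 7 panels.

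By mean FPKM over the 9 livers, the order of the members was Cd74 at 62.0, H2-Aa at 30.3, H2-Ab1 at 22.9, H2-Eb1 at 13.8, H2-DMb1 at 2.44, H2-DMa at 2.30, and Ciita at 0.254. On the log2 scale, Cd74 was above H2-Aa in 9 of 9 livers, by between 0.42 in ND mouse 6 and 1.55 in PRF 50 mouse 9. H2-Aa was above H2-Ab1 in 9 of 9 livers, by between 0.23 and 0.71. The log2 difference of H2-DMa minus H2-DMb1 took both signs and ran from -0.26 in HFD mouse 3 to 0.18 in ND mouse 9.

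The members varied together between livers. Over the 9 livers, Pearson's r between pairs of members lay between 0.80 (H2-Eb1 and Ciita) and 0.97 (H2-Ab1 and H2-Eb1), and after subtracting the group means the highest r was again that of H2-Ab1 and H2-Eb1. These correlations are descriptions over 9 livers that share 1 high liver, PRF 50 mouse 3. That liver was the highest of the 9 for 7 of the 7 members, and the highest for 10.7% of the 10048 genes averaging 1 FPKM or more. Over these genes ND mouse 6 stood apart, being the highest liver for 23.6% and the lowest for 18.3%, more than any other liver. The depth of PRF 50 mouse 3 was 0.982 of that of HFD mouse 1, as estimated from the ratios of low values. It was 1.51 for PRF 50 mouse 9 and 0.963 for PRF 50 mouse 10. The part of depth in the values was not tested.

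The comparison of HFD and ND asks what the fat diet changed. All 6 members averaging 1 FPKM or more had lower means in the HFD group, as did 51.7% of the 9978 genes tested. The median log2 fold change of the 6 was -0.16, from -0.35 for H2-Ab1 to -0.03 for Cd74, beside a median of -0.01 over all genes. None of the 6 passed an adjusted p under 0.05 in limma, while 1.33% of all genes did. At an unadjusted p under 0.05 there were 0 of 6 members and 15.1% of all genes. H2-Ab1, with a log2 fold change of -0.35 (SE 0.20, n = 3 per group), had an adjusted p of 0.471. The HFD livers were never all below the ND livers for any of the 7 members, against 10% of all genes. The median of the 6 log2 fold changes was -0.37 without ND mouse 6 and -0.09 without ND mouse 9, and that of H2-Ab1 was -0.59 (adjusted p = 0.0863) without ND mouse 6. The lower mean of Cd74 rested on single mice, since without HFD mouse 1, ND mouse 7, or ND mouse 9 its log2 fold change was 0.01, 0.17, and 0.10.

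The comparison of PRF 50 and HFD asks what the fraction changed in mice on the fat diet. All 6 tested members had higher means in the PRF 50 group, as did 47.0% of the 10084 genes tested. The median log2 fold change of the 6 was 0.64, from 0.50 for H2-Eb1 to 0.85 for Cd74, beside a median of -0.02 over all genes. None of the 6 passed an adjusted p under 0.05 in limma, while 3.59% of all genes did, and 1.43% of all genes did with higher values in the PRF 50 group. At an unadjusted p under 0.05 there were 2 of 6 members, Cd74 and H2-DMa, and 20.2% of all genes. Cd74 had a log2 fold change of 0.85 (SE 0.29, n = 3 per group) with an adjusted p of 0.163, and H2-DMa one of 0.69 (SE 0.25) with an adjusted p of 0.177. Both were higher without overlap, as was Ciita, which was below the minimum for limma, against 10.9% of all genes tested. H2-Ab1 had a log2 fold change of 0.80 (SE 0.38) with an adjusted p of 0.297. The ratio of mean FPKM was 1.96 for Cd74 and 3.22 for Ciita.

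The size of these differences depended on single livers. Without PRF 50 mouse 3, the 6 log2 fold changes lay between 0.03 and 0.48 with a median of 0.32, and without PRF 50 mouse 9 they lay between 0.87 and 1.22 with a median of 0.95. In both cases all 6 kept the direction, and no adjusted p was under 0.05, the lowest being 0.110 and 0.071.

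The comparison of PRF 50 and ND sets the treated mice on the fat diet beside mice on the normal diet, and it shares its PRF 50 livers with the comparison above. All 6 tested members had higher means in the PRF 50 group, as did 43.4% of the 10051 genes tested. The median log2 fold change of the 6 was 0.43, from 0.34 for H2-Eb1 to 0.83 for Cd74, beside a median of -0.03 over all genes. None of the 6 passed an adjusted p under 0.05 in limma, while 0.458% of all genes did. At an unadjusted p under 0.05 there were 0 of 6 members and 12.5% of all genes. Cd74 had a log2 fold change of 0.83 (SE 0.37, n = 3 per group) with an adjusted p of 0.412. The groups were higher without overlap for 0 of the 6 tested members and for Ciita, against 8.19% of all genes tested. Without PRF 50 mouse 3, the log2 fold changes of H2-Aa and H2-Eb1 were -0.06 and -0.13, and the median of the 6 was 0.07. The median was 0.80 without PRF 50 mouse 9 and 0.26 without ND mouse 6.

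**Figure D2:**
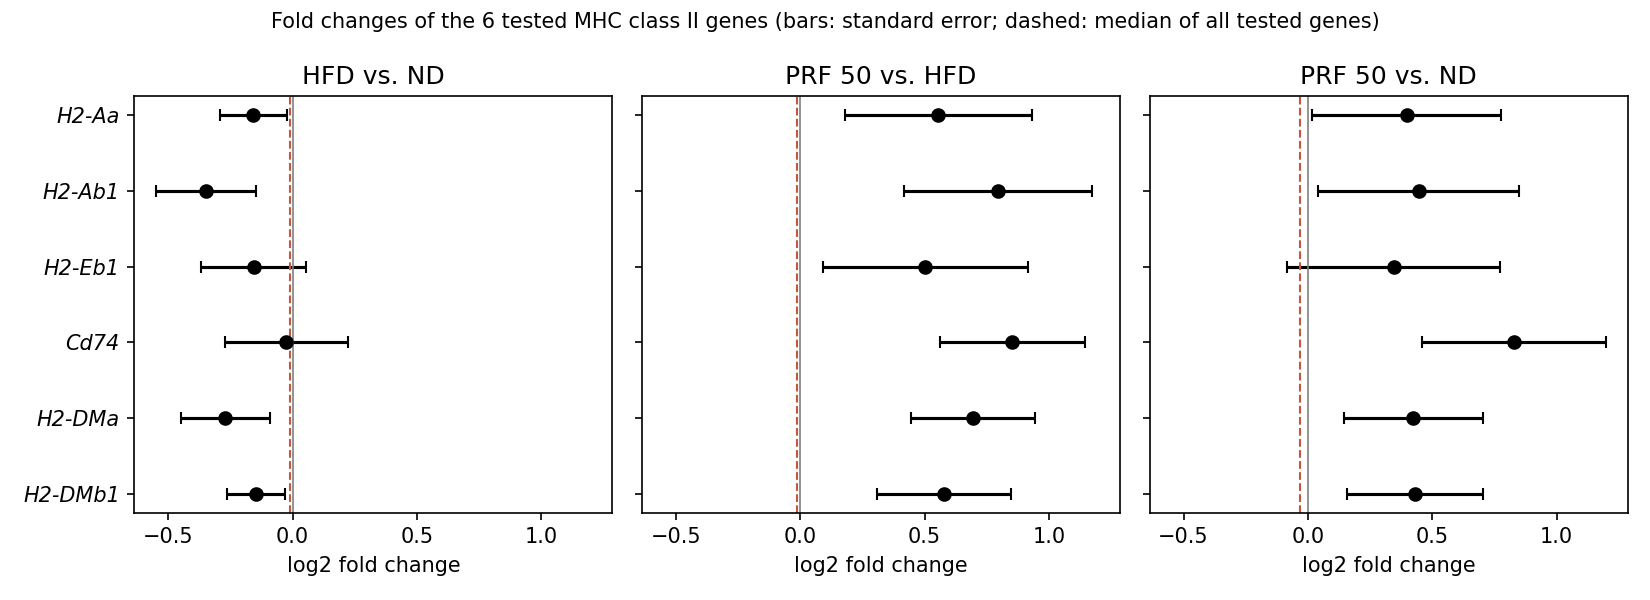
Log2 fold change (horizontal axis) of the 6 tested MHC class II genes (vertical axis) in the 3 comparisons, with standard errors from limma, and the median of all tested genes as a dashed line. The 6 points lie between -0.35 and -0.03 for HFD vs. ND, between 0.50 and 0.85 for PRF 50 vs. HFD, and between 0.34 and 0.83 for PRF 50 vs. ND.

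Other genes of the pathway and the markers of cell types were taken from lists. These were chosen with earlier results of these data known, so that their counts are descriptions. Among regulators of class II transcription, 15 of 17 genes were tested in PRF 50 vs. HFD, with 2 called higher, as were 1.43% of all genes, 0 called lower, and a median log2 fold change of 0.11. The 2 were Spi1, the myeloid factor PU.1, with 1.09 (SE 0.17, adjusted p = 0.0251), and Irf8, a factor of myeloid and B cell development, with 0.81 (SE 0.14, adjusted p = 0.0322). Spi1 also passed in PRF 50 vs. ND, with 1.14 (SE 0.18, adjusted p = 0.0491), where 0.159% of all genes were called higher. The RFX and NF-Y subunits, which bind the X and Y boxes, did not pass, with Rfx5 at 0.11 (adjusted p = 0.740) and Nfya at 0.14 (adjusted p = 0.632) in PRF 50 vs. HFD. Jak1 was the most abundant gene of the list, with a mean of 17.9 FPKM. Ifng, which encodes the interferon that induces Ciita, was above 0 in 3 of 9 livers, at 0.21 in ND mouse 6 and 0.22 in HFD mouse 1 and PRF 50 mouse 9. In HFD vs. ND none of the 15 tested regulators was called, beside 1.33% of all genes.

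Among genes of peptide and invariant chain processing, 10 of 10 were tested in PRF 50 vs. HFD, 8 with higher means (47.0% of all genes), 6 without overlap (10.9%), and 1 called higher (1.43%). The called gene was Lgmn, an asparaginyl endopeptidase of the endosome, with 1.11 (SE 0.18, adjusted p = 0.0289). Ctss, the cathepsin that trims the invariant chain, had 1.19 (SE 0.26, adjusted p = 0.0546) and missed the threshold. Ctsl was the most abundant, with a mean of 292 FPKM. Ifi30, a thiol reductase of the endosome, had 0.92 (SE 0.21, adjusted p = 0.0684). The calls of Spi1, Irf8, and Lgmn against HFD each held in 1 of 6 fits that left out 1 mouse, chosen for these genes after the data had been seen. All 3 were lost without HFD mouse 2, HFD mouse 3, PRF 50 mouse 3, or PRF 50 mouse 10, Spi1 and Irf8 also without HFD mouse 1, and Lgmn also without PRF 50 mouse 9. Over these fits the adjusted p ranged from 0.0298 to 0.0881 for Spi1, from 0.0422 to 0.105 for Irf8, and from 0.0241 to 0.0833 for Lgmn. The log2 fold change ranged from 0.95 to 1.22 for Spi1, from 0.69 to 0.90 for Irf8, and from 0.90 to 1.24 for Lgmn. The call of Spi1 against ND was lost without ND mouse 6, ND mouse 7, or any 1 of the 3 PRF 50 mice, with an adjusted p from 0.0414 to 0.177. It was also lost with no minimum level (adjusted p = 0.144), with quantile normalization (0.0571), and with eBayes without a trend (0.0516).

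Of the genes of class I presentation, set beside the class II genes for comparison, 9 of 10 had higher means under PRF 50 than under HFD (47.0% of all genes), with a median log2 fold change of 0.37. The log2 average of this list was 5.57, 5.48, and 5.45 in HFD mice 1, 2, and 3. It was 6.05, 5.73, and 5.67 in PRF 50 mice 3, 9, and 10, again highest in PRF 50 mouse 3. None of the 10 was called in limma (3.59% of all genes), and 5 had an unadjusted p under 0.05 (20.2% of all genes). The highest value was 0.56 for Psmb8, an immunoproteasome subunit (adjusted p = 0.0899). Of 6 genes of class II turnover and co-stimulation, 2 were tested in PRF 50 vs. HFD and neither was called (3.59% of all genes). Cd86, a co-stimulatory ligand, had 0.56 (adjusted p = 0.0805), and March8, a ubiquitin ligase that can remove class II molecules from the surface, had -0.29 (adjusted p = 0.0995). March1, the other ligase of the list, was below the minimum level and went the other way. It measured 0.31, 0.54, and 0.88 in HFD mice 1, 2, and 3, and 1.11, 1.22, and 1.32 in PRF 50 mice 3, 9, and 10. Of 5 other genes of the class II locus, 1 was tested in PRF 50 vs. HFD, H2-Ea-ps, the defective I-E alpha gene. H2-Ea-ps measured 3.62 in HFD mouse 2 and 3.25 in PRF 50 mouse 9 and was listed at 0 in the other 7 livers, although the labels give all 9 mice the same strain. As seen after the values were known, the same pair of livers had the lowest log2 levels of H2-K1, a class I gene, at 8.56 in both against 9.20 or more in the other 7. The log2 difference of Cd74 minus H2-Ab1 was also the highest in this pair, at 1.75 in HFD mouse 2 and 1.91 in PRF 50 mouse 9, against at most 1.43 in the others. HFD mouse 2 was the lowest of the 9 livers for H2-Ab1, and PRF 50 mouse 9 was the lowest for H2-Aa and H2-Eb1. Without PRF 50 mouse 9, the log2 fold changes against HFD were 0.96 for H2-Aa and 0.95 for H2-Eb1, in place of 0.55 and 0.50. Without HFD mouse 2 they were 0.55 for H2-Aa and 0.37 for H2-Eb1. The part of what sets this pair apart in the class II values was not tested. H2-Oa and H2-Ob, the inhibitors of H2-DM, were below 1 FPKM on average.

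Kupffer cells carry class II molecules. Of 11 Kupffer cell markers, 11 were tested in PRF 50 vs. HFD, 10 were called higher (1.43% of all genes), and 11 were higher without overlap (10.9%), with a median log2 fold change of 1.45. Clec4f, a lectin of Kupffer cells, had 1.38 (SE 0.25, adjusted p = 0.0336), and Timd4, a receptor of resident macrophages, had 1.49 (SE 0.19, adjusted p = 0.0150). This count depended on single mice, being 1 without HFD mouse 2, 0 without HFD mouse 3, 1 without PRF 50 mouse 3, 5 without PRF 50 mouse 10, 7 without HFD mouse 1, and 9 without PRF 50 mouse 9. Over all genes, the same fits called 31, 15, 40, 168, 215, and 242 genes in that order, against 362 with no mouse left out. Leaving out 1 mouse was tried for this list after the data had been seen. In PRF 50 vs. ND, 0 of the 11 were called in limma (0.458% of all genes). At an unadjusted p under 0.05 there were 11 (12.5%), and 11 were higher without overlap (8.19%), with a median of 1.35. The number called was 2 without ND mouse 9 and 1 without PRF 50 mouse 9. In HFD vs. ND, 0 of 11 were called (1.33% of all genes), 0 had an unadjusted p under 0.05 (15.1%), and the median was -0.01. The summed FPKM of the list was 109, 199, and 245 in ND mice 6, 7, and 9, then 125, 198, and 199 in HFD mice 1, 2, and 3, and 659, 405, and 449 in PRF 50 mice 3, 9, and 10. All 3 PRF 50 livers were above the other 6, led by PRF 50 mouse 3. Cd5l was the most abundant marker, with a mean of 54.1 FPKM, and 0 of the 11 were listed at 0 in all livers.

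The average of the 6 tested members differed from that of the Kupffer cell markers between groups. The members' average minus the markers' average, on the log2 scale, was 0.23, 0.09, and -0.29 in ND mice 6, 7, and 9, then 0.29, -0.42, and -0.27 in HFD mice 1, 2, and 3, and -0.67, -1.31, and -1.03 in PRF 50 mice 3, 9, and 10. The 3 PRF 50 livers were below the other 6, so that the class II genes were less abundant beside these markers there than in the ND and HFD livers. The difference was chosen after the data had been seen. The part of Kupffer cell numbers in the class II values was not tested.

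**Figure D3:**
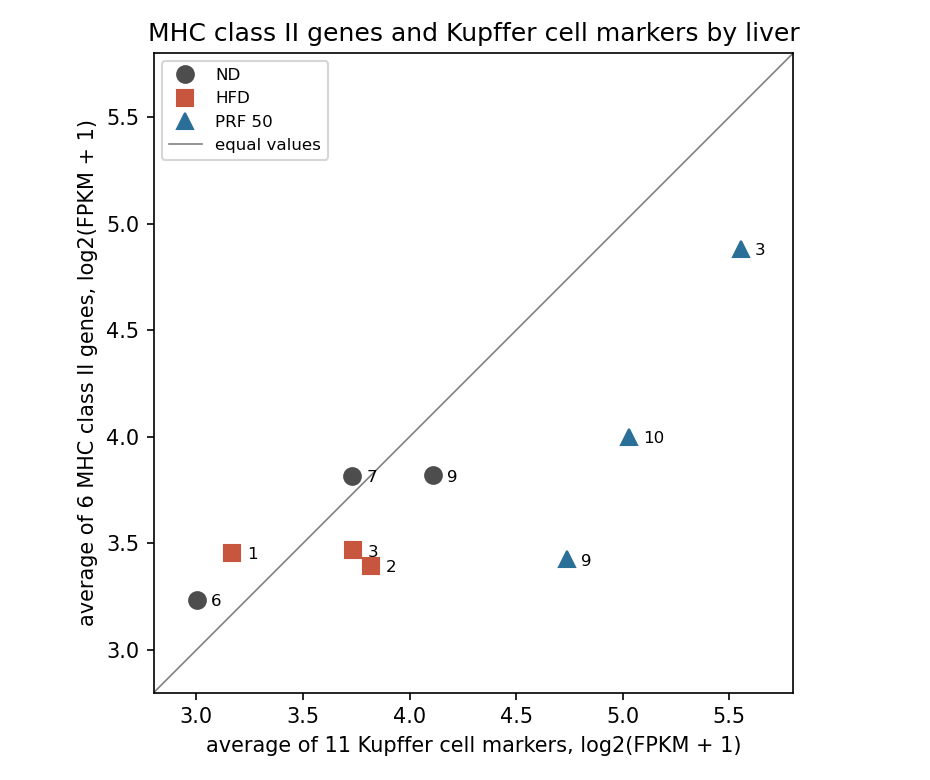
Average of the 6 tested MHC class II genes (vertical axis) against the average of 11 Kupffer cell markers (horizontal axis), both on the log2(FPKM + 1) scale, with 1 point per liver, its mouse number, and a line of equal values. The PRF 50 livers lie to the right of the other 6 and below the line, by between 0.67 and 1.31.

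Of 7 pan-leukocyte markers, 7 were tested in PRF 50 vs. HFD, 7 had higher means (47.0% of all genes), and 2 were called higher (1.43%), Fcer1g with 1.12 (SE 0.19, adjusted p = 0.0321) and Laptm5 with 1.10 (SE 0.21, adjusted p = 0.0370). Both calls were lost without any 1 of the 3 HFD mice, that of Fcer1g also without PRF 50 mouse 10, and that of Laptm5 also without PRF 50 mouse 3 or PRF 50 mouse 9. Over the fits that left out 1 mouse, the adjusted p ranged from 0.0367 to 0.0957 for Fcer1g and from 0.0445 to 0.103 for Laptm5, while the log2 fold change ranged from 0.89 to 1.26 for Fcer1g and from 0.87 to 1.27 for Laptm5. The summed FPKM of these markers was 57.2, 76.6, and 93.1 in the ND mice, 62.1, 78.0, and 79.8 in the HFD mice, and 206, 116, and 118 in PRF 50 mice 3, 9, and 10. Tyrobp was the most abundant, with a mean of 27.6 FPKM, and none was listed at 0 in all livers. The members' average minus that of the pan-leukocyte markers ran from 0.42 to 0.69 in the ND livers, from 0.23 to 0.56 in the HFD livers, and from -0.30 to 0.38 in the PRF 50 livers. The PRF 50 livers thus overlapped the HFD livers and lay below the ND livers.

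The markers of dendritic cells, B cells, and T cells had low levels. Of 12 dendritic cell markers, 1 reached the minimum level in PRF 50 vs. HFD, Batf3, with 0.70 (adjusted p = 0.422). It did so only through PRF 50 mouse 3, at 2.46 against 0.62 and 1.03 in PRF 50 mice 9 and 10. Its mean in the HFD group was 0.600 FPKM, so that this value does not stand for the list. Summed FPKM over the 12 ran from 2.58 to 3.37 in the ND livers and from 2.30 to 2.79 in the HFD livers, and was 7.90, 2.88, and 4.33 in PRF 50 mice 3, 9, and 10. The highest liver was again PRF 50 mouse 3. Of 10 B cell markers, 9 were in the tables and 0 reached the minimum level in PRF 50 vs. HFD, with summed FPKM from 3.30 to 3.64 in the ND livers, from 0.997 to 2.04 in the HFD livers, and from 1.81 to 2.65 in the PRF 50 livers. Cd79b was the most abundant of them. Of 7 T cell markers, 0 reached the minimum level in any comparison, and Cd4, with a mean of 0.538 FPKM, was the most abundant. Summed FPKM of the T cell markers was 2.16, 2.18, and 1.51 in ND mice 6, 7, and 9, then 0.993, 0.524, and 1.05 in HFD mice 1, 2, and 3, and 4.17, 1.88, and 1.90 in PRF 50 mice 3, 9, and 10. The highest liver was PRF 50 mouse 3, all 3 PRF 50 livers were above the HFD livers, and 4 of the 7 markers were higher in PRF 50 vs. HFD without overlap. The same held for 2 of the 12 dendritic cell markers, 1 of the 9 B cell markers, and 10.9% of the genes tested, while nearly all of these markers were below the minimum level.

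Of 9 markers of monocytes and recruited macrophages, 3 were tested in PRF 50 vs. HFD and 0 were called (3.59% of all genes), with a median of 0.29. Most of the 9 were below the minimum level, so that the median of 3 genes does not stand for the list. Fn1 was the most abundant, with a mean of 162 FPKM, and which cells of the liver gave this level was not tested. Ly6c2, a marker of monocytes, had 0.82 (SE 0.26, adjusted p = 0.132) and was higher without overlap, as were 10.9% of all genes. It reached the minimum level only through the PRF 50 group, with a mean of 2.22 FPKM there and 0.791 FPKM in the HFD group. Of 8 sinusoidal endothelial and 7 stellate cell markers, 0 were called in any of the 3 comparisons. Of 4 cholangiocyte markers at most 1 was tested and 0 were called. Over all genes, 1.33% were called in HFD vs. ND, 3.59% in PRF 50 vs. HFD, and 0.458% in PRF 50 vs. ND. In HFD vs. ND, 7 of the 8 sinusoidal endothelial markers had lower means (51.7% of all genes), 2 had an unadjusted p under 0.05 (15.1%), and the median was -0.49. Their summed FPKM was 48.9, 65.7, and 84.0 in ND mice 6, 7, and 9, then 19.3, 45.9, and 63.0 in HFD mice 1, 2, and 3, and 46.9, 48.4, and 78.8 in PRF 50 mice 3, 9, and 10. The lowest liver was HFD mouse 1, with a log2 average of this list of 1.59, against 2.35 and 2.59 in HFD mice 2 and 3. The lower values of the HFD group thus rested in part on this liver. The 3 groups overlapped, and Clec4g was the most abundant, with a mean of 30.5 FPKM. The part of these cells in the class II values was not tested.

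**Figure D4:**
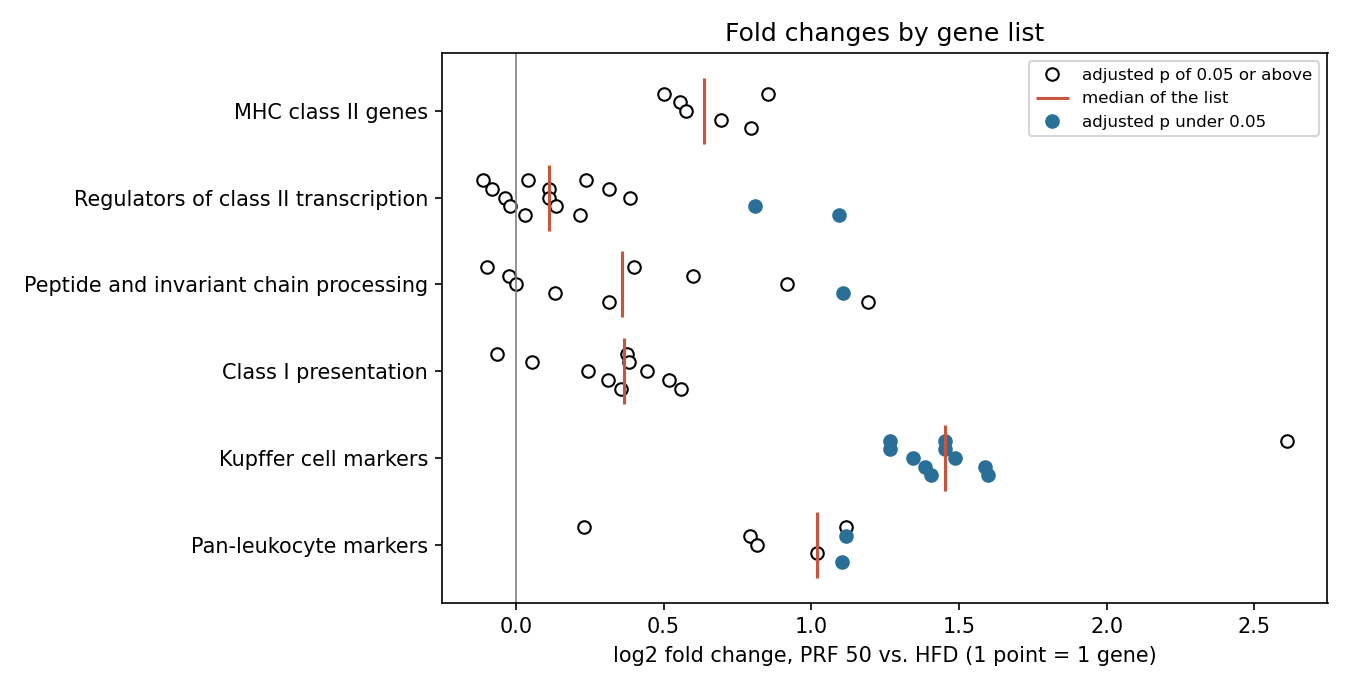
Log2 fold change in PRF 50 vs. HFD (horizontal axis) of each tested gene of 6 lists (vertical axis), with filled points for an adjusted p under 0.05 and a line at the median of each list. The medians are 0.64 for the MHC class II genes, 0.37 for class I presentation, 1.02 for the pan-leukocyte markers, and 1.45 for the Kupffer cell markers. PRF 50 mouse 3 had the highest average of each of these lists, and without it the median of the MHC class II genes was 0.32.

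The genes most like the members over the 9 livers were found from Pearson's r with the average z-score of the 6 tested members, among 10042 other genes averaging 1 FPKM or more, whose median r was -0.04. The 4 highest were Cxcl13, Mpg, Basp1, and Serpina3f, with r from 0.97 to 0.93. After subtracting the group means, r was 0.96 for Cxcl13, a chemokine that attracts B cells, and 0.92 for Spic, a transcription factor of splenic red pulp macrophages. Cxcl13 measured 0.22, 0.68, and 1.22 in ND mice 6, 7, and 9, then 0.33, 0.29, and 0.46 in HFD mice 1, 2, and 3, and 3.53, 0.89, and 1.44 in PRF 50 mice 3, 9, and 10. As for the members, the highest liver was PRF 50 mouse 3. Cxcl13, with a mean of 1.78 FPKM, reached the minimum of 1 FPKM only through this liver, so that its rank depends on it. Among all list genes, r was highest for the pan-leukocyte markers Coro1a and Cd52, at 0.90 for both, and among the Kupffer cell markers it was highest for Marco at 0.87 and was 0.68 for Clec4f. Marco, a scavenger receptor, measured 1.21, 1.14, and 1.98 in the ND mice, 1.23, 2.10, and 1.33 in the HFD mice, and 5.90, 2.21, and 4.38 in the PRF 50 mice, the order of the PRF 50 livers being that of H2-Aa. The regulators Irf8 and Spi1 had r of 0.81 and 0.71, Rfx5 0.20, and Nfyc -0.58.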

How the data were processed

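Liver RNA of 9 mice was sequenced as directional, poly(A)-selected libraries with paired ends. After trimming, the authors aligned reads by TopHat (mm10 in the submitters' processing notes), estimated FPKM with Cufflinks, and applied a geometric normalization stated with EdgeR; versions and annotation are not given in the sources used here. The authors deposited log2 values, read here as log2(FPKM + 1). Read counts were not used, so absolute depth is unknown, and relative depth (0.963 to 1.60) came from ratios of low values. Genes averaging 1 FPKM or more in the 6 mice compared were tested with limma 3.58.1 (lmFit, eBayes with trend, R 4.3.3), and p-values were adjusted over all genes by Benjamini-Hochberg. A gene was called at an adjusted p under 0.05. The fit was tested on simulated data. Ciita was tested by exact permutation. The named genes are the 7 members, called, most abundant, or defining genes of the lists, and the 4 genes most like the members. Others were named after their values were seen. They were Spic, H2-K1, Ly6c2, Coro1a, Cd52, Ctss, Ifi30, Psmb8, Cd86, March8, March1, Rfx5, Nfya, Nfyc, Ifng, Marco, and Rnu6. Members and lists were chosen with earlier results of these data known. Alternatives were all 9 mice in 1 fit, each mouse left out, a pseudocount of 0.1, no minimum, 10 FPKM, median-of-ratios scaling, quantile normalization, and eBayes without a trend.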

Additional observations from a re-analysis of the deposited data

How the results depend on the processing

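Of 258 alternative values of single MHC class II genes, 249 kept the direction without passing the threshold, 0 passed it, and 6 changed direction. The other 3 kept the direction but moved beyond the spread between mice, a shift looked for in Ciita only. Of the 258, 27 were values of Ciita without an adjusted p, which could not pass the threshold. The 3 that moved were those of Ciita with a pseudocount of 0.1, at -0.24, 1.19, and 0.94 in HFD vs. ND, PRF 50 vs. HFD, and PRF 50 vs. ND, and H2-DMa and H2-DMb1 gave no value at a minimum of 10 FPKM. Those that changed direction were Cd74 in HFD vs. ND, at 0.01 without HFD mouse 1, 0.17 without ND mouse 7, and 0.10 without ND mouse 9, Ciita in HFD vs. ND, at 0.002 without HFD mouse 2, and H2-Aa and H2-Eb1 in PRF 50 vs. ND without PRF 50 mouse 3. Over the fits that left out 1 mouse, Cd74 in HFD vs. ND ranged from -0.35 to 0.17, H2-Aa in PRF 50 vs. ND from -0.059 to 0.80, and H2-Eb1 from -0.13 to 0.79. The number of members called was 0 under every alternative tried. With no minimum level, the genes called numbered 37 in HFD vs. ND (133 with the minimum), 126 in PRF 50 vs. HFD (362), and 11 in PRF 50 vs. ND (46), where all 9 mice in 1 fit gave 102. Leaving out 1 mouse gave 35 to 140 genes in HFD vs. ND, 15 to 242 in PRF 50 vs. HFD, and 4 to 71 in PRF 50 vs. ND. These fits have fewer samples. The Kupffer cell counts and the values of called list genes under the alternatives were chosen after the data had been seen. With no minimum level, the calls of Spi1, Irf8, Lgmn, Laptm5, and Fcer1g in PRF 50 vs. HFD were lost. Their log2 fold changes were the same there, and the adjusted p in limma ran from 0.0621 for Spi1 to 0.0787 for Laptm5. The number of Kupffer cell markers called was 10 in PRF 50 vs. HFD, 2 with no minimum level, and between 0 and 9 when 1 mouse was left out. In PRF 50 vs. ND it was 0, 2 with all 9 mice in 1 fit, and between 0 and 2 when 1 mouse was left out. Apart from fewer samples or other genes tested, the cause was not tested. No paired analysis was possible because the groups share at most 1 mouse number. Fragment counts per gene are unknown, so the values of Ciita, H2-DMa, and H2-DMb1 are the least certain. Exact permutation of 3 mice against 3 cannot go below 0.1.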
